A study of Glycine max with 12 samples.

Results

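A stretch of soybean chromosome 16 is described here in which many genes had different counts in roots of 2 lines. The genes were chosen by their identifiers, from Glyma.16G170900 to Glyma.16G189200 in numerical order, and by a count sum of 30 or more over the 12 libraries. Of 184 identifiers of the table in that range, 92 passed, 59 had some counts under that minimum and 33 had no count. The whole table held 56877 rows. The ends of the stretch were selected from line differences seen in these same libraries in both treatments, so every OX against WT value below is a description, given without a p-value and, where calls are counted, with nothing read from the count. The response to aluminium within each line was not used to choose the stretch, and it was tested. The difference of that response between the lines draws on the same line differences. Its p-values are printed, but they are no independent test.

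Soybean (Glycine max) roots of 2 genotypes, labelled OX and WT, were sequenced as bulk RNA with 50 µM AlCl3 (groups OX_Al and WT_Al) or with 0 µM AlCl3 (groups OX_CK and WT_CK), in a study that looked for genes of aluminium tolerance. Each group had 3 libraries. The labels do not say what OX refers to or whether it is a single line. Nor do they state if a group's 3 libraries are from different plants, and the p-values therefore rest on a spread between libraries that may be only technical. Library totals ran from 15923413 to 18399566 counts. The identifiers are not paired with names in the sources used here, so no gene name or role is given, and the root label could not be set against marker genes. In bulk roots, fewer cells of a type and less RNA per cell cannot be told apart.

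Aluminium ions become soluble in acid soils and stop root growth, and tolerant plants release organic acids or alter their cell walls and transporters. Plant chromosomes carry tandem arrays, in which near-identical copies of 1 gene lie side by side, and lines of a species often differ in how many copies an array holds and in their sequence. Soybean also descends from a doubled genome, so that most chromosome segments have a related segment elsewhere. A read that matches several copies can be divided among them, and a divided read can appear in a count table as a value with decimals. A gene with such values is uncertain, because its level depends on how reads were shared out.

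Levels are given as CPM, the deposited values scaled to library size with TMM factors and not corrected for gene length. The mean over all libraries ran from 0.153 to 238.5 CPM, with a median of 3.66. Of the 92 genes, 66 had a mean of at least 1 CPM, 32 of at least 10 CPM and 4 of at least 100 CPM. The genes nearest the count minimum were Glyma.16G185900 with a sum of 30.44, Glyma.16G183700 with 31.87 and Glyma.16G171100 with 32.09. Just outside it lay Glyma.16G186300 with 28.52, Glyma.16G174600 with 25.61 and Glyma.16G186900 with 24.46. The filter of the test kept 75 of the 92 genes.

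OX and WT libraries did not overlap, in the same direction in Al and in CK, for 22 genes (23.9%). Of these, 15 were higher in OX and 7 were lower. Over all rows with the same count minimum, 4.88% were apart in this way, 2.96% higher and 1.92% lower in OX. Another 21 genes were apart in Al only, 10 in CK only and 1 in both in opposite directions, and 38 overlapped in both treatments. Counted by treatment, whatever the other showed, 44 of the 92 genes were apart in Al and 33 in CK. Over all rows these were 9959 and 6813 of 39822. The share apart in 1 treatment only is not given over all rows, so nothing is read from those counts. At the threshold used below for Al (adjusted p under 0.05), 19 genes passed for OX against WT in Al and 19 in CK, 13 higher and 6 lower in each. Of all genes tested, 6.07% were called in Al (4.16% higher, 1.91% lower) and 4.43% in CK (2.93% higher, 1.5% lower). The CK count was 12 without OX_CK replicate 2 and 11 without WT_CK replicate 2. Because the stretch was picked on these contrasts, nothing is read from these shares.

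**Figure D1:**
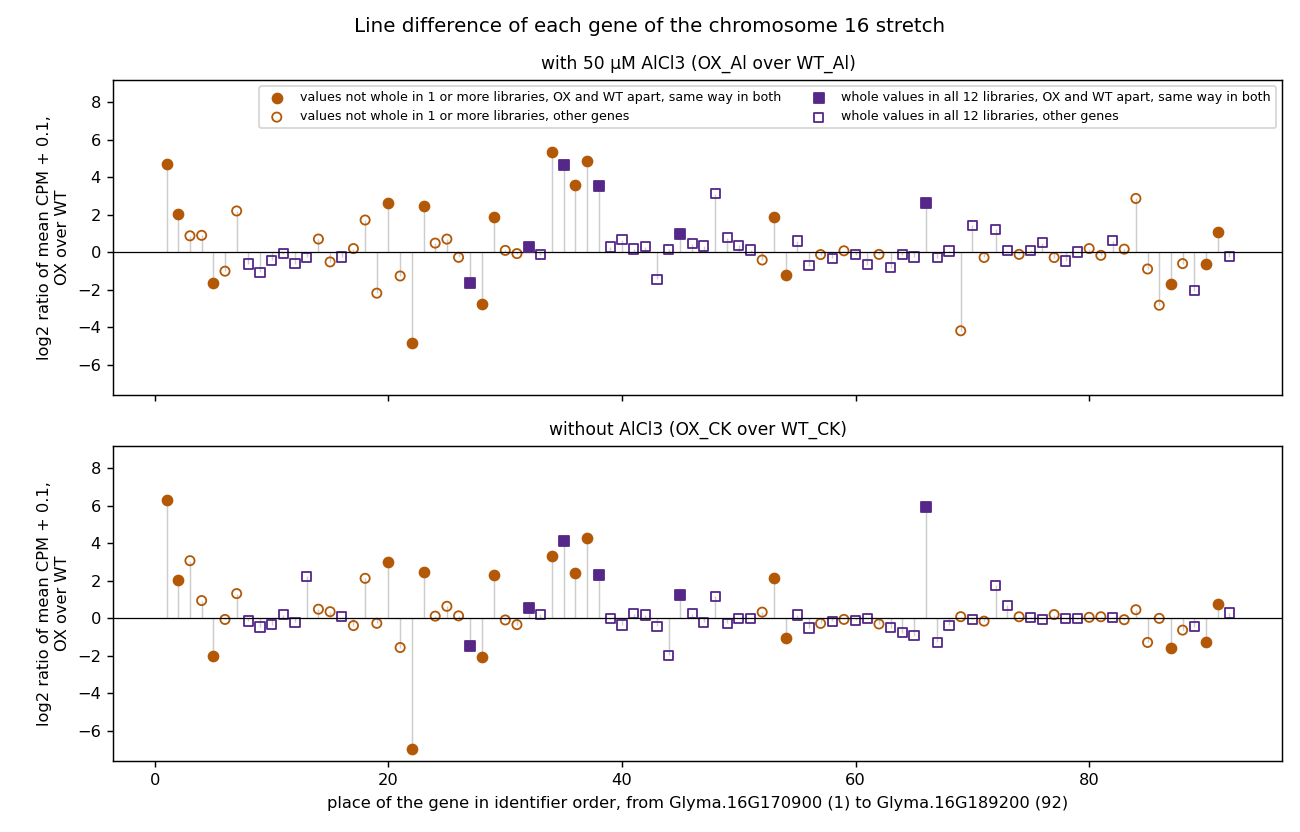
Log2 ratio of OX over WT (mean CPM + 0.1) for the 92 genes in identifier order, with Al in the upper panel and in CK in the lower one. Circles are genes with values that are not whole in 1 or more libraries, squares are genes with whole values, and filled symbols are the 22 genes whose OX and WT libraries lie apart the same way in both treatments. The 5 neighbours from Glyma.16G176600 to Glyma.16G177000 stand above 0 together in both panels.

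The differences were not spread evenly, as the plot of log2 ratios by place shows. The stretch was divided into 4 sections after the values were seen. From Glyma.16G170900 to Glyma.16G175900, 9 of 29 genes were apart in both treatments, with 5 higher and 4 lower in OX. From Glyma.16G176000 to Glyma.16G177000, 6 of 9 genes were apart, all higher in OX. From Glyma.16G177100 to Glyma.16G182500, 4 of 45 genes were apart, 3 of them higher in OX. The last section had 67 identifiers but only 9 genes with 30 counts or more, from Glyma.16G183700 to Glyma.16G189200, of which 1 was higher and 2 were lower in OX. The median size of the log2 ratio in Al was 1.02, 3.55, 0.32 and 1.08 in the 4 sections in that order.

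The stretch differed from its surroundings by degree. In the 50 genes before it, from Glyma.16G163200 to Glyma.16G170500, 14% were apart in both treatments, with 6 higher and 1 lower in OX. In the 50 genes after it, from Glyma.16G189300 to Glyma.16G199300, 16% were apart, with 3 higher and 5 lower. Over the whole rest of chromosome 16, 6.62% of 1374 genes were apart. These shares are descriptions, since the ends of the stretch were set by the same values.

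Whole and fractional counts divided the 92 genes evenly. Values were whole in all 12 libraries for 46 genes and not whole in at least 1 library for 46 genes (50.0%), against 41.6% of all rows with the same minimum. When over 1% of the summed count had to lie in fractional parts, 17 genes (18.5%) counted as fractional, against 2.03% of all rows, 3.64% of the rest of chromosome 16, 14% of the 50 genes before the stretch and 18% of the 50 after it. In the stretch, 28 genes had such values in 5 or more libraries, and 18 had them in 1 to 4. Among the 46 fractional genes, 16 (34.8%) were apart in both treatments, 10 of them higher in OX. Among the 46 whole-valued genes, 6 (13.0%) were apart, 5 of them higher in OX. Over all rows, the shares were 4.82% of fractional genes and 4.92% of whole-valued genes. The median size of the log2 ratio of OX over WT in Al was 0.96 for fractional and 0.44 for whole-valued genes of the stretch, and in CK it was 0.64 and 0.28. Fractional genes were most frequent in the first section, with 21 of 29, and in the last, with 7 of 9. What part divided reads play in the line differences was not tested.

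Glyma.16G170900, the first gene of the stretch, had counts in OX and none in WT. It had 1.36, 2.59 and 3.69 CPM in the OX_Al libraries and no count in the WT_Al libraries. It had 4.22, 5.58 and 14.1 CPM in the OX_CK libraries and no count in the WT_CK libraries. OX exceeded WT by at least 43.8-fold in Al and 150-fold in CK, against a floor of 3 counts over the WT group. Its next neighbour in the stretch, Glyma.16G171100, showed the same pattern at a lower level, with 14.75 counts over the OX_Al libraries, 17.34 over the OX_CK libraries and none in any WT library. Glyma.16G171200, the third gene, had 48.9 counts over OX_CK and 1 count over WT_CK, and only 4.07 over OX_Al and none over WT_Al.

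Glyma.16G171900 was lower in OX at a level well above the floor. It had 34.7, 42.5 and 40.5 CPM in OX_Al, against 126.9, 119.0 and 129.5 CPM in WT_Al. Without Al the values were 26.7, 30.3 and 39.97 CPM in OX_CK, against 120.4, 107.9 and 157.2 CPM in WT_CK. The highest OX library thus lay far below the lowest WT library, with log2 ratios of -1.67 in Al and -1.99 in CK. The gene had fractional values in all 12 libraries, and it did not pass the test for Al in either line (adjusted p = 0.238 in OX and 0.884 in WT).

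The whole-valued Glyma.16G175500 was also lower in OX. It had 0.458, 0.789 and 0.0596 CPM in OX_Al, against 1.34, 1.41 and 2.05 CPM in WT_Al. Without Al it had 0.763, 0.813 and 1.46 CPM in OX_CK, against 1.86, 2.66 and 4.38 CPM in WT_CK, again without overlap, and the log2 ratios were -1.67 and -1.47.

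Neighbouring genes with opposite line differences were a feature of the stretch. A pair was counted when OX exceeded WT at least 2-fold in Al and in CK for 1 gene and lay at least 2-fold below WT in both for the next. There were 4 such pairs among the 91 neighbouring pairs of the stretch (4.4%), and 8, these 4 included, among 38828 neighbouring pairs in the whole table (0.0206%). The count was 2 with an offset of 0.5 CPM in place of 0.1, 2 without WT_CK replicate 3, and 8 when genes up to 2 places apart were paired. As with the other line differences, these counts describe a stretch chosen for them.

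The pair Glyma.16G175900 and Glyma.16G175600 was the clearest case of a loss matched by a gain. Glyma.16G175900 had 2.89, 1.77 and 1.80 CPM in OX_Al, against 0.202, 0.248 and 1.06 CPM in WT_Al. In CK the values were 3.33, 5.35 and 3.72 CPM in OX_CK, against 0.364, 0.658 and 1.19 CPM in WT_CK. Its OX libraries were above its WT libraries in both treatments, with log2 ratios of 1.90 in Al and 2.34 in CK. Glyma.16G175600 had 0.319, 0.397 and 0.163 CPM in OX_Al, against 2.29, 2.51 and 2.81 CPM in WT_Al. Without Al this gene had 1.31, 1.05 and 0.919 CPM in OX_CK, against 4.24, 5.78 and 4.69 CPM in WT_CK. Its OX libraries were all below its WT libraries, with log2 ratios of -2.75 and -2.07.

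The counts of these 2 genes added up to whole numbers in all 12 libraries, although each was fractional in all 12. The sums were 49, 33 and 33 counts in OX_Al, against 39, 47 and 70 in WT_Al. They were 79, 118 and 86 counts in OX_CK, against 84, 116 and 114 in WT_CK. The summed level was 2.45 ± 0.666 CPM in OX_Al and 3.04 ± 0.736 CPM in WT_Al, and 5.23 ± 1.01 CPM in OX_CK and 5.64 ± 0.938 CPM in WT_CK (SD, n = 3 each). The summed libraries of the lines overlapped in both treatments, and the log2 ratio of the sum was -0.30 in Al and -0.11 in CK. The lines thus differed in how the counts were divided between the 2 genes, while for their sum the difference was within the spread of the libraries.

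The pair Glyma.16G175100 and Glyma.16G174900 behaved otherwise. Glyma.16G174900 had 0.105, 0.108 and 0.112 CPM in OX_Al, against 6.05, 5.77 and 6.14 CPM in WT_Al. It had no count in the 3 OX_CK libraries, against 12.2, 14.1 and 10.8 CPM in WT_CK, and was at least 222-fold lower in OX in CK. Its neighbour Glyma.16G175100 had 2.65, 4.03 and 5.30 CPM in OX_Al, against 0.824, 0.824 and 0.254 CPM in WT_Al. In CK it had 3.46, 2.69 and 4.02 CPM in OX_CK, against 0.608, 0.570 and 0.374 CPM in WT_CK. The gain of Glyma.16G175100 was smaller than the loss of Glyma.16G174900. Their sum was 4.10 ± 1.33 CPM in OX_Al and 6.62 ± 0.245 CPM in WT_Al, and 3.39 ± 0.669 CPM in OX_CK and 12.9 ± 1.78 CPM in WT_CK, without overlap in either treatment.

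In the other pairs the gain was the larger part. Glyma.16G174700 had 5.99, 5.47 and 7.19 CPM in OX_Al, against 1.28, 0.95 and 0.569 CPM in WT_Al. In CK it had 4.26, 6.79 and 6.53 CPM in OX_CK, against 0.379, 0.539 and 0.984 CPM in WT_CK. Its neighbour Glyma.16G174800 had lower means in OX, 0.106 ± 0.121 CPM in OX_Al against 0.398 ± 0.177 CPM in WT_Al, and 0.124 ± 0.215 CPM in OX_CK against 0.559 ± 0.427 CPM in WT_CK (SD, n = 3 each), but its libraries overlapped in both treatments.

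Glyma.16G178900 had 52.2, 52.5 and 58.8 CPM in OX_Al, against 16.7, 13.2 and 13.7 CPM in WT_Al. The CK values were 34.8, 37.2 and 38.2 CPM in OX_CK, against 8.66, 7.88 and 7.58 CPM in WT_CK. Every OX library was more than 2-fold above every WT library of the same treatment, with log2 ratios of 1.90 in Al and 2.18 in CK. Its neighbour Glyma.16G179000 had 0.262, 0.469 and 0.363 CPM in OX_Al, against 1.15, 0.827 and 0.945 CPM in WT_Al. Without Al it had 0.0587, 0.164 and 0.109 CPM in OX_CK, against 0.334, 0.281 and 0.412 CPM in WT_CK, again without overlap. The sum of the pair followed Glyma.16G178900, with log2 ratios of 1.82 in Al and 2.12 in CK.

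**Figure D2:**
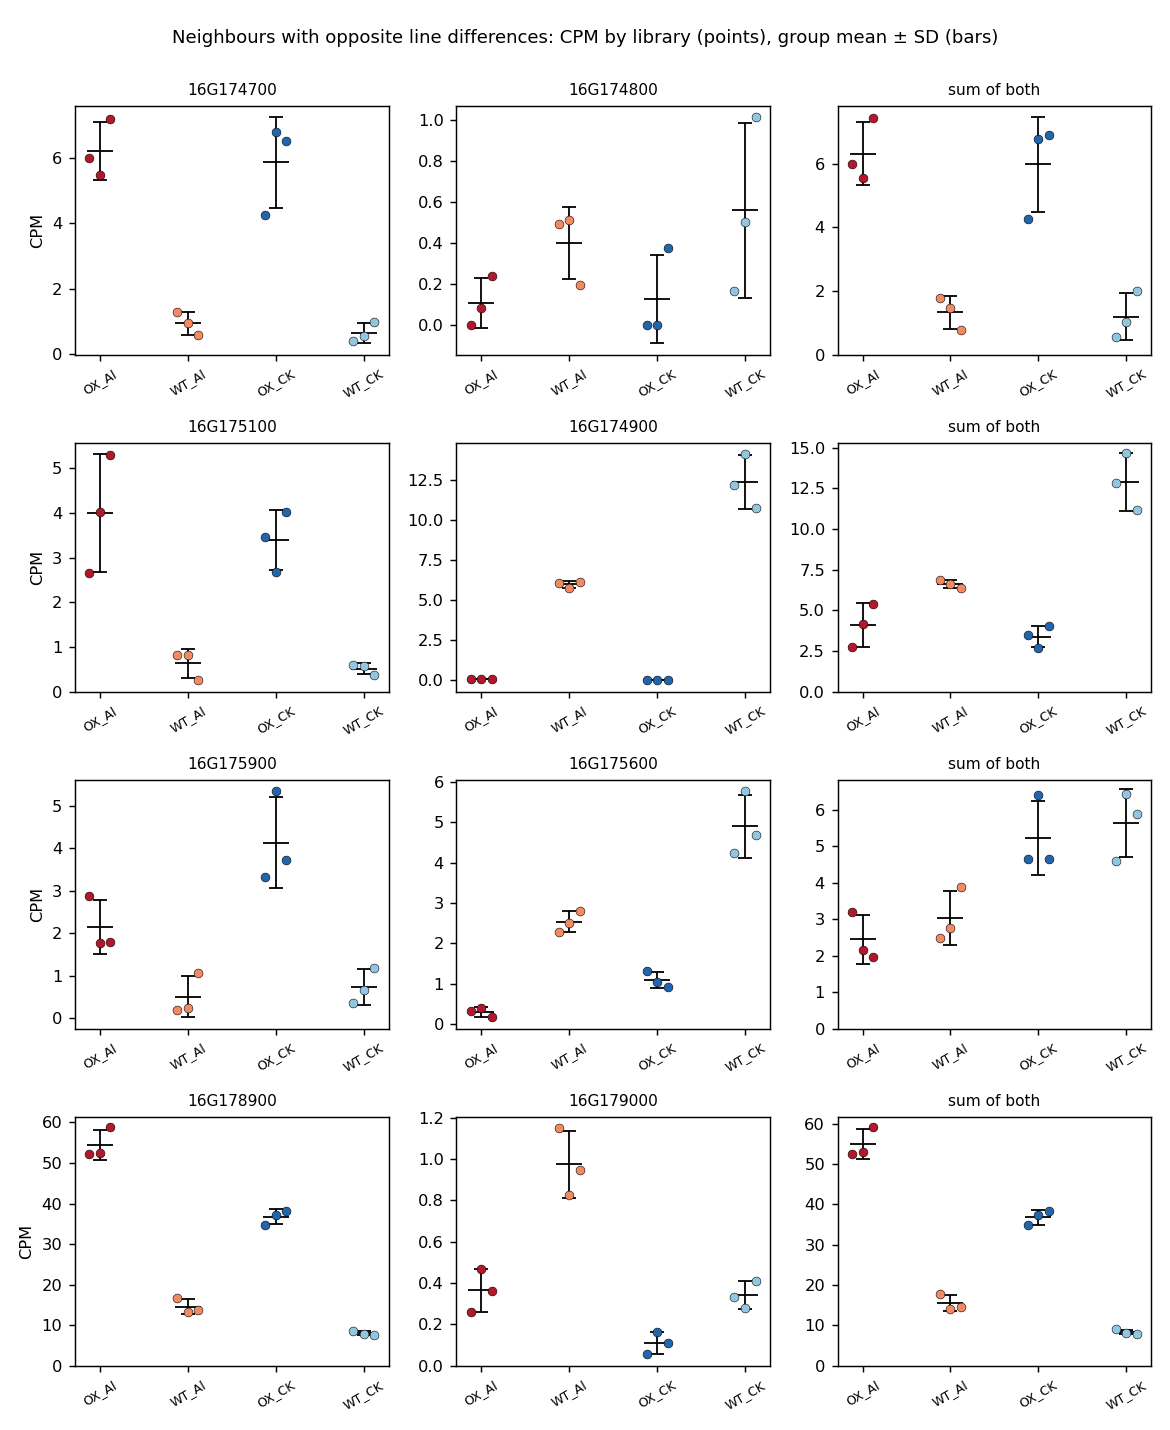
CPM in each library (points) with the group mean ± SD (bars, n = 3) for the 4 neighbouring pairs with opposite line differences, the gene higher in OX on the left, the gene lower in OX in the middle and their sum on the right. For Glyma.16G175900 and Glyma.16G175600 the sums of OX and WT overlap, and for the other pairs they do not.

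The origin of the decimals is not given in the sources used here, and if they stem from divided reads the parts of a read add up to a whole. For this description, set up after the values were seen, 2 genes were called partners when both were fractional in at least 5 libraries and their sum was whole to within 0.01 in at least 80% of those. The 28 genes of the stretch with enough fractional libraries were set against all genes of the table. Of 167118 comparisons, 13 met the rule, with pairs of these genes inside the stretch compared from both sides. Counted once each, these were 11 pairs. Of the 28 genes, 12 (42.9%) had a partner, against 78.6% of 7688 such genes in the whole table. That partners share reads was not tested.

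Partners within the stretch were Glyma.16G175600 with Glyma.16G175900, in 12 of 12 libraries, and Glyma.16G171700 with Glyma.16G172200, in 8 of 9. The pair of Glyma.16G171700 and Glyma.16G172200 was near the count minimum, with sums of 4, 7 and 4 counts in OX_Al and 6, 6 and 5 in WT_Al. Glyma.16G171900 had its partner just before the stretch, Glyma.16G170500, in 10 of 12 libraries. There the lines differed in the sum as well. The sum of these 2 genes was 56.3 ± 4.85 CPM in OX_Al and 144.9 ± 4.40 CPM in WT_Al, and 51.7 ± 6.47 CPM in OX_CK and 152.4 ± 22.3 CPM in WT_CK (SD, n = 3 each). Glyma.16G170500 itself had log2 ratios of OX over WT of -0.21 in Al and -0.30 in CK. In addition, the run of Glyma.16G175200, Glyma.16G175300 and Glyma.16G175400 had a whole sum, to within 0.02, in 8 of 9 libraries. Its summed level overlapped between the lines in both treatments, with log2 ratios of 0.03 in Al and 0.27 in CK.

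The other partners lay on chromosome 9. There were 7 such genes, all from Glyma.16G176100 onward, and their partners followed the same order. They were Glyma.16G176100 with Glyma.09G128500 (9 of 9 libraries), Glyma.16G178800 with Glyma.09G131500 (7 of 7), Glyma.16G181000 with Glyma.09G135100 (11 of 11), Glyma.16G181500 with Glyma.09G136000 (6 of 6), Glyma.16G182200 with Glyma.09G136800 (5 of 5), Glyma.16G182500 with Glyma.09G137200 (9 of 9) and Glyma.16G189100 with Glyma.09G138400 (10 of 10). Glyma.16G176100 also met the rule with Glyma.19G186600, in 4 of 5 libraries. Of these 7 genes only Glyma.16G189100 was apart between the lines in both treatments. It had 7.45, 8.10 and 6.49 CPM in OX_Al, against 3.37, 3.98 and 2.91 CPM in WT_Al, and 11.3, 11.8 and 8.82 CPM in OX_CK, against 7.27, 5.72 and 5.69 CPM in WT_CK. Summed with its chromosome 9 partner, it was 13.99 ± 0.242 CPM in OX_Al and 8.25 ± 1.18 CPM in WT_Al, and 16.2 ± 2.75 CPM in OX_CK and 11.3 ± 2.53 CPM in WT_CK (SD, n = 3 each), and the sums overlapped in CK.

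A run of 5 neighbouring genes, Glyma.16G176600 to Glyma.16G177000, had counts in every OX library, and at most 10.48 counts over a WT group except in Glyma.16G177000. It was the longest run in the table of neighbouring genes apart the same way in both treatments, against 2 runs of 4 genes, 12 of 3 and 102 of 2. Glyma.16G176600 had 3.73, 6.57 and 3.87 CPM in OX_Al and 0.646, 1.03 and 1.54 CPM in OX_CK, with 1 count over the WT_Al libraries and 1 over the WT_CK libraries. The ratio of OX over WT was 238 in Al, with a 95% counting interval of 42.4 to 9460, and 60.3 in CK, with an interval of 10.5 to 2440. Glyma.16G176700, which had whole counts throughout, had 2.68, 2.30 and 2.38 CPM in OX_Al and 0.528, 2.06 and 2.27 CPM in OX_CK, and no count in the 6 WT libraries. OX exceeded WT by at least 41.5-fold in Al and at least 30.6-fold in CK.

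Glyma.16G176900 had 2.89, 3.85 and 3.32 CPM in OX_Al and 1.29, 3.24 and 3.13 CPM in OX_CK, with 1 count over WT_Al and 2 over WT_CK. The ratio was 170 in Al (counting interval 30 to 6750) and 72.1 in CK (19.6 to 602). Glyma.16G176800 had 1.82, 3.58 and 5.32 CPM in OX_Al, against 0.158, 0.351 and 0.111 CPM in WT_Al, and 0.235, 0.443 and 0.918 CPM in OX_CK, against 1 count over WT_CK. Glyma.16G177000, the last of the run and whole-valued, had 12.05, 13.7 and 11.7 CPM in OX_Al, against 1.72, 0.820 and 0.388 CPM in WT_Al, where its counts were 27, 14 and 7. In CK it had 1.53, 2.66 and 2.48 CPM in OX_CK, against 0.165, 0.388 and 0.567 CPM in WT_CK. On both sides of the run the levels of the lines were close, as in Glyma.16G176300 with log2 ratios of -0.14 in Al and 0.21 in CK, and Glyma.16G177100 with 0.28 and -0.02.

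**Figure D3:**
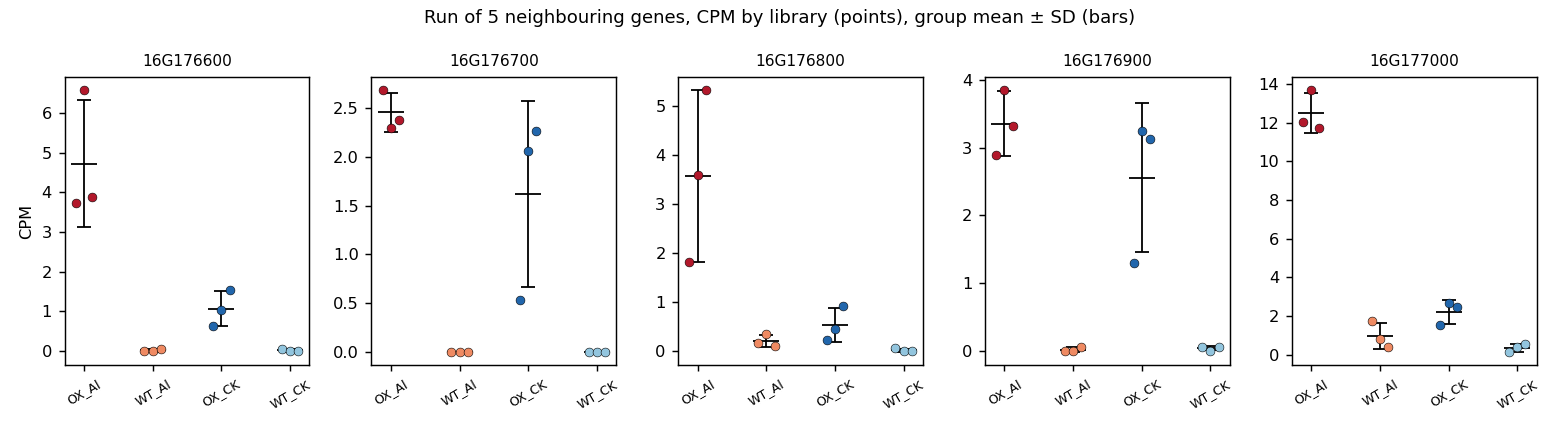
CPM in each library (points) with the group mean ± SD (bars, n = 3) for the 5 neighbouring genes from Glyma.16G176600 to Glyma.16G177000. Every OX library lies above every WT library of the same treatment in all 5 panels.

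Within this run 3 of the 5 genes rose with Al in OX, beside 21.2% of all genes tested. The run was picked after its values were seen, so nothing is read from that count. The log2 fold change of OX_Al over OX_CK was 2.12 ± 0.44 (SE) for Glyma.16G176600 (adjusted p = 0.00297), 2.73 ± 0.57 for Glyma.16G176800 (adjusted p = 0.00294) and 2.48 ± 0.40 for Glyma.16G177000 (adjusted p = 0.000567). Glyma.16G176700 and Glyma.16G176900 were not called, with 0.59 ± 0.51 and 0.39 ± 0.40 (adjusted p = 0.393 and 0.467). Of the 5, Glyma.16G176700 and Glyma.16G176800 passed the filter of the test only through OX_Al, so a difference from that group was built into the choice. None of the 5 was called in WT, where the closest to the threshold were Glyma.16G176800 (3.02 ± 1.20, adjusted p = 0.0661) and Glyma.16G177000 (1.34 ± 0.54, adjusted p = 0.0676). For none was the difference of the response between the lines called (lowest adjusted p = 0.563, for Glyma.16G177000). In WT, Glyma.16G176700 had no count, and Glyma.16G176600, Glyma.16G176800 and Glyma.16G176900 had at most 10.48 counts over a group. For these a change in WT or a difference between the lines could hardly be called. Nothing is read from those missing calls.

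The response to Al was tested in each line. In OX, 39 of the 75 tested genes (52.0%) were called, 24 higher and 15 lower in OX_Al than in OX_CK, beside 36.4% of all genes tested (21.2% higher, 15.2% lower). In WT, 27 (36.0%) were called, 15 higher and 12 lower in WT_Al than in WT_CK, beside 37.4% of all genes tested (21.5% higher, 15.9% lower). The median log2 fold change of the tested genes was 0.06 in OX and -0.02 in WT, against -0.02 and -0.04 over all genes tested. The OX count was 21 without OX_Al replicate 3, with 17 higher and 4 lower, and 23 without OX_CK replicate 1, with 16 higher and 7 lower. Without the filter on low values it was 35, with 26 higher and 9 lower. The share over all genes is not given for these fits, so these counts cannot be set against it.

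In both lines 14 genes rose (18.7%, beside 16% of all genes tested) and 8 fell (10.7%, beside 9.16%). A further 9 rose (12%, beside 5.05%) and 7 fell (9.33%, beside 6.04%) in OX without a call in WT. In WT 1 rose (1.33%, beside 5.49%) and 3 fell (4.0%, beside 6.58%) without a call in OX. Glyma.16G174900 was called in opposite directions (1.33%, beside 0.161%), and its call in OX rests on 5.13 deposited counts rounded up for the fit. Called in neither line were 32 genes (42.7%, beside 51.5%). Of the 75 tested genes, 6 passed the filter only because of 1 group, and for these a difference from that group was built into the choice. Among them Glyma.16G176800 and Glyma.16G178200 passed through OX_Al, Glyma.16G177800 through WT_CK and Glyma.16G179000 through WT_Al. Of the 6, 4 were called for Al in OX, all as rises, and 3 of these 4 had passed through OX_Al or OX_CK alone. In WT 2 of the 6 were called, and both had passed through a WT group alone.

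Glyma.16G173000 rose strongly in both lines, with whole counts throughout. It had 269.3, 215.1 and 212.5 CPM in OX_Al, against 10.5, 54.3 and 17.5 CPM in OX_CK. In WT it had 354.1, 358.0 and 136.3 CPM in WT_Al, against 2.74, 5.27 and 9.07 CPM in WT_CK. No Al library overlapped a CK library of its line. The log2 fold change was 3.08 ± 0.60 (SE) in OX and 5.63 ± 0.68 in WT (adjusted p = 0.00196 and 5.5e-05), and the difference between the lines, -2.55 ± 0.81, did not pass (adjusted p = 0.181).

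Among called genes that averaged 1 CPM or more in OX_Al or OX_CK, the largest rise in OX was that of Glyma.16G178200. It passed the filter only through OX_Al. The libraries had 1.11, 1.58 and 1.19 CPM in OX_Al, against 0, 0.108 and 0.270 CPM in OX_CK (log2 fold change 3.26 ± 0.74 SE, adjusted p = 0.00697). A larger fitted rise in OX, that of Glyma.16G174900, stands on less than 1 CPM in OX and is described below. Glyma.16G178100 had 1.18, 1.38 and 0.953 CPM in OX_Al, against 0.235, 0 and 0.270 CPM in OX_CK (log2 fold change 2.75 ± 0.78 SE, adjusted p = 0.0161). The WT libraries had 0.128, 0 and 0.0554 CPM of Glyma.16G178200 in WT_Al and no count in WT_CK, and 1.02, 0.762 and 0.941 CPM of Glyma.16G178100 in WT_Al, against 0.0548, 0.0555 and 0.516 CPM in WT_CK. Both are low genes with whole counts, and no OX_Al library overlapped an OX_CK library. The call of Glyma.16G178100 ended without OX_Al replicate 2 (adjusted p = 0.0535). It was also called in WT (2.05 ± 0.75, adjusted p = 0.0496), where it lost the call without any 1 of the WT_Al libraries, without WT_CK replicate 1 or 2, with another scaling and without the filter, with adjusted p-values of up to 0.159.

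Among genes that fell in OX, Glyma.16G175600, described above with its partner, changed by -1.83 ± 0.34 on the log2 scale (SE, adjusted p = 0.00147), and it also fell in WT, with -0.94 ± 0.25 (adjusted p = 0.0117, and 0.0594 without WT_CK replicate 2). The last gene of the stretch, Glyma.16G189200, had 1.37, 0.986 and 0.477 CPM in OX_Al, against 3.29, 4.12 and 2.32 CPM in OX_CK (-1.78 ± 0.48, adjusted p = 0.013). In WT it was not called, with 0.447, 1.70 and 1.27 CPM in WT_Al, against 1.92, 3.61 and 2.42 CPM in WT_CK. That call ended without OX_Al replicate 3 (adjusted p = 0.058). Glyma.16G170900, at the other end, had a value of -1.64 ± 0.54 in OX (adjusted p = 0.0444), which ended without any 1 of 5 of the 6 OX libraries and without the filter, with adjusted p-values of up to 0.14.

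Among genes that fell in WT, Glyma.16G177800 had 0.319, 0.234 and 0.388 CPM in WT_Al, against 0.877, 1.05 and 1.96 CPM in WT_CK (log2 fold change -2.02 ± 0.58 SE, adjusted p = 0.0165). It passed the filter of the test only through WT_CK, so a difference from that group was built into the choice. Its call ended without WT_Al replicate 1 or 2 or WT_CK replicate 3 (adjusted p = 0.0549, 0.0662 and 0.0571). The OX libraries overlapped, with 0.131, 0.657 and 0.298 CPM in OX_Al, against 0.235, 0.434 and 0.108 CPM in OX_CK. Glyma.16G180800 had 9.26, 8.03 and 20.9 CPM in WT_Al, against 24.6, 28.6 and 69.1 CPM in WT_CK (-1.67 ± 0.55, adjusted p = 0.0319). Its call ended without the same 3 libraries (adjusted p = 0.119, 0.112 and 0.137) and without the filter (0.0584). It also overlapped in OX, with 26.3, 41.1 and 36.1 CPM in OX_Al, against 31.9, 15.7 and 70.1 CPM in OX_CK. Glyma.16G182400 fell in WT to 1.60, 1.82 and 3.54 CPM in WT_Al, against 5.43, 6.49 and 7.27 CPM in WT_CK (-1.45 ± 0.29, adjusted p = 0.0019), and kept its call in each of those fits. It was also called in OX, with 3.404, 3.61 and 3.81 CPM in OX_Al, against 8.22, 5.42 and 6.32 CPM in OX_CK (-0.88 ± 0.28, adjusted p = 0.0284), and that call ended without any 1 of the OX_Al libraries or OX_CK replicate 1 (adjusted p of up to 0.121).

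**Figure D4:**
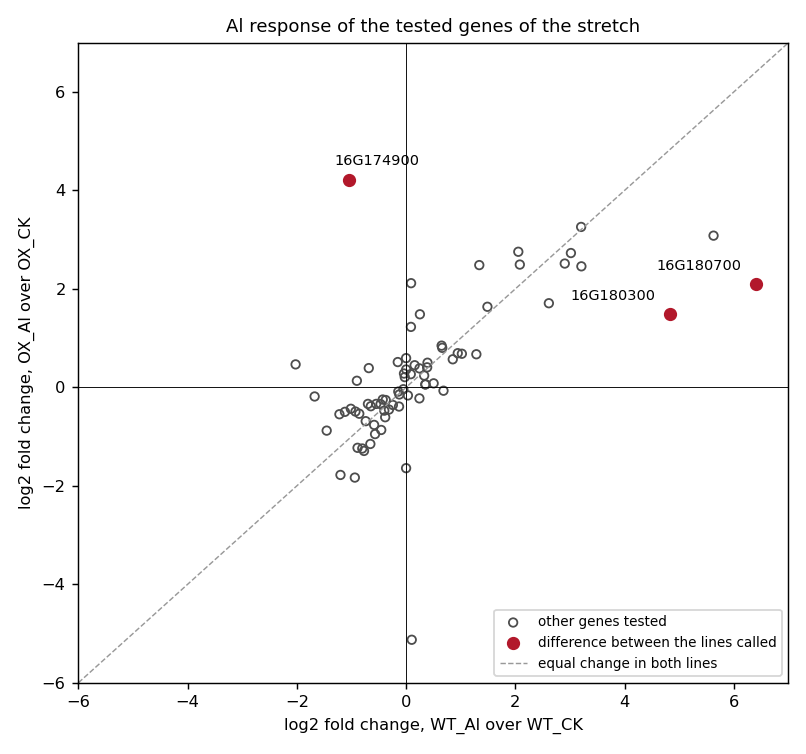
Log2 fold change with Al in OX (vertical axis) against that in WT (horizontal axis) for the 75 tested genes of the stretch, with the line of equal change dashed. The 3 genes whose response differed between the lines by the test are filled: Glyma.16G180300 and Glyma.16G180700 lie below the line, and Glyma.16G174900 lies above it. The latter rests on a total of 5.13 deposited counts in OX, rounded up for the fit.

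The interaction of line and treatment was computed next. It is the line difference in Al minus that in CK, so it draws on the values that chose the stretch and is no independent test of it, and nothing is read from its share of calls. It called 3 of the 75 tested genes (4.0%), beside 1.63% of all genes tested. On the log2 scale the response in OX was higher for 1 and lower for 2, beside 0.88% and 0.748% of all genes tested. Glyma.16G180300 had the highest mean CPM of the stretch, not scaled for gene length, with whole counts in all libraries. It had 549.7, 648.6 and 678.1 CPM in OX_Al, against 124.8, 281.5 and 265.9 CPM in OX_CK. In WT it had 129.7, 100.3 and 72.6 CPM in WT_Al, against 2.03, 2.44 and 6.14 CPM in WT_CK. OX was above WT in both treatments, with log2 ratios of 2.63 in Al and 5.95 in CK, and the OX_CK libraries overlapped the WT_Al libraries. The log2 fold change with Al was 1.48 ± 0.39 (SE) in OX and 4.83 ± 0.46 in WT (adjusted p = 0.0109 and 8.29e-06). The difference was -3.34 ± 0.57 (adjusted p = 0.0139, and up to 0.0487 over its 17 alternatives). That is a difference of log2 fold changes. In CPM the rise was larger in OX, from a mean of 224.1 to 625.5, against 3.54 to 100.9 in WT.

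Glyma.16G180700, a near neighbour, was low without Al in both lines and differed with it. It had 4.78, 6.38 and 5.18 CPM in OX_Al, against 0.881, 2.17 and 0.756 CPM in OX_CK. In WT it had 115.3, 97.7 and 91.5 CPM in WT_Al, against 1.92, 0.555 and 1.08 CPM in WT_CK. Every WT_Al library was far above every OX_Al library, while the lines overlapped in CK. The log2 fold change with Al was 2.09 ± 0.38 (SE) in OX and 6.41 ± 0.40 in WT (adjusted p = 0.00138 and 3.58e-07). The difference was -4.32 ± 0.55 (adjusted p = 0.00261, and up to 0.011 over its 17 alternatives). Only 1 of its 12 values was not whole.

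The difference called for Glyma.16G174900, 5.26 ± 0.80 (SE, adjusted p = 0.0192), rests on 5.13 deposited counts summed over OX_Al, with OX_CK at 0. Glyma.16G174900 had 1.6, 1.65 and 1.88 counts in the OX_Al libraries, which were rounded up for the fit. Its fitted change in OX, 4.22 ± 0.78 (adjusted p = 0.0111, and 0.0771 with values rounded down), depends on the prior count of the fit. Against the floor of 3 counts the increase was only 1.95-fold, and the counting error of the 5.13 counts is not in that figure. In WT it fell, with a log2 fold change of -1.05 ± 0.18 (adjusted p = 0.00118). The difference was not called with values rounded down (adjusted p = 0.163), without any 1 of the OX_Al libraries (0.0554, 0.0615 and 0.0527) or without OX_CK replicate 2 or 3 (0.068 and 0.0542).

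**Figure D5:**
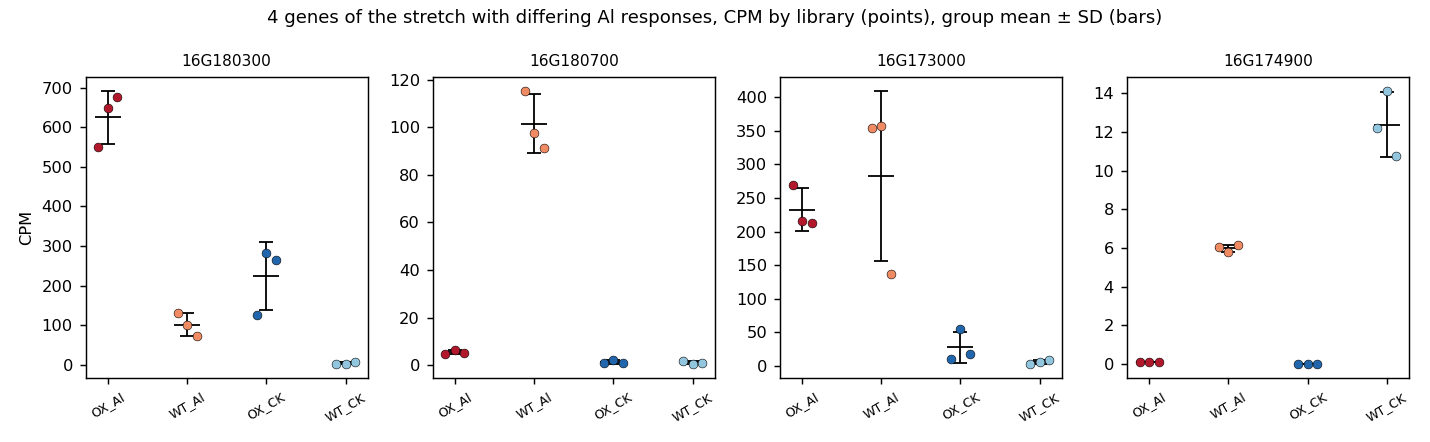
CPM in each library (points) with the group mean ± SD (bars, n = 3) for Glyma.16G180300, Glyma.16G180700, Glyma.16G173000 and Glyma.16G174900. The 3 OX_Al libraries of Glyma.16G180300 lie above all others, and the 3 WT_Al libraries of Glyma.16G180700 lie above all others.

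Glyma.16G178900, higher in OX in both treatments, rose with Al in both lines, by 0.57 ± 0.12 (log2, SE) in OX and 0.85 ± 0.12 in WT (adjusted p = 0.00286 and 0.000221). Its lower neighbour Glyma.16G179000 was called as well, with 1.64 ± 0.52 in OX and 1.49 ± 0.40 in WT (adjusted p = 0.0283 and 0.0116). It passed the filter of the test only through WT_Al, so a difference from that group was built into the choice. The calls of Glyma.16G179000 ended in OX without OX_Al replicate 2 or 3 or OX_CK replicate 1 or 3 (adjusted p = 0.114, 0.069, 0.107 and 0.0643) and with the DESeq2 Wald test (0.0754), and in WT without WT_CK replicate 2 (0.0519).

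Many genes of the stretch did not differ detectably between lines or treatments. Glyma.16G182500, among the 3 genes with the highest mean CPM, had 144.9, 166.9 and 181.8 CPM in OX_Al, against 130.6, 127.5 and 169.1 CPM in OX_CK. In WT it had 138.8, 131.9 and 170.9 CPM in WT_Al, against 129.1, 134.9 and 185.1 CPM in WT_CK. All groups overlapped, and neither Al response passed the test (log2 fold change 0.21 ± 0.19 SE in OX and -0.02 ± 0.19 in WT, adjusted p = 0.403 and 0.932).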

How the data were processed

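Estimated counts, with 2 decimals and not scaled, stand in 1 table that the authors deposited, per the file headers. Of its values, 13.2% were not whole (tolerance 1e-06). The submitters' processing notes name HTSeq 0.6.0, HISAT2 2.1.0, Bowtie2 2.2.3, TopHat2 and CASAVA, without saying what each was used for. Build, annotation, strand setting and the origin of the decimals: not given in the sources used here. Reads of overlapping or antisense genes can therefore not be separated. The table had 56877 gene rows and 8 of stray text that were left out, and 0 identifiers matched the 59048 genes of the reference table of assembly Glycine_max_v4.0.

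The test was laid out for whole counts, so values were rounded to whole numbers for the test and kept as deposited for CPM, which were scaled by TMM. Genes were filtered with filterByExpr (minimum count 10, minimum total 15), and edgeR 4.0.16 in R 4.3.3 fitted all 12 libraries with a mean per group. Its quasi-likelihood F-test, robust and two-sided, was used with Benjamini-Hochberg adjustment over the 37170 genes tested and calls under 0.05. Its code was tested on simulated data. The SE is the log2 fold change divided by the root of F. Log2 ratios of OX over WT used mean CPM + 0.1. Folds against a group without counts use a floor of 3 counts over the group, and against 1 to 3 counts an exact 95% binomial (Clopper-Pearson) interval. At least thus means against that floor, and the counting error of the group with counts is left out. The interval covers counting error only.

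The members, sections and lists were chosen with earlier results of these data known. Genes were named by rule. The rule took the 6 highest and 4 lowest without overlap, the opposite neighbours, the 3 most abundant, and those with a called difference. It also took the 3 largest rises and falls with Al per line, among called genes with at least 1 CPM in that line. The run of 5, the partners and the other genes named were chosen after their values were seen. After subtracting group means, libraries with the same number correlated at 0.129, 0.219 and 0.361 between WT_Al and WT_CK and at 0.413, 0.125 and 0.582 between OX_CK and WT_CK, so numbers were taken to pair these, on the data alone. They correlated at 0.204, -0.00396 and 0.163 between OX_Al and OX_CK and at 0.0332, -0.131 and -0.00321 between OX_Al and WT_Al, which were not taken as paired. Alternatives were another scaling, no filter, rounding down, DESeq2 1.42.0, the replicate block and leaving out each library.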

Additional observations from a re-analysis of the deposited data

Results flagged for a closer look

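By the interaction test of the edgeR fit, 3 genes of the stretch were called for a differing Al response. The test draws on values that also chose the stretch, so it is no independent test. The difference of the log2 fold change, OX minus WT, was -3.34 for Glyma.16G180300 (adjusted p = 0.0139) and -4.32 for Glyma.16G180700 (adjusted p = 0.00261). It was 5.26 for Glyma.16G174900 (adjusted p = 0.0192), where it rests on 5.13 deposited counts over OX_Al, rounded up for the fit, and none in OX_CK. That call was lost in 6 of 17 alternatives, with an edgeR adjusted p of up to 0.163.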

How the results depend on the processing

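The total counts of called genes stayed within 1.5 times their values under another scaling, no filter, rounding down, DESeq2 and the replicate block, but the genes lower with Al in OX numbered 9 without the filter, against 15. With the replicate block, 40 genes were called for Al in OX, 32 for Al in WT, 3 for the difference, 21 between the lines in Al and 20 in CK, and no gene named for an Al response or a difference lost its call. Without 1 library, the counts ran from 21 to 31 for Al in OX, from 22 to 33 for Al in WT, from 2 to 3 for the difference, from 16 to 19 between the lines in Al and from 11 to 19 in CK. Genes apart in both treatments then numbered 22 to 26, and opposite pairs 2 to 5. Leaving out a library can only keep or add genes apart, so that count could not fall below 22. Shares over all genes are not given for these alternatives, so the counts cannot be set against them. Opposite pairs numbered 2 with an offset of 0.5 CPM and 8 with genes up to 2 places apart. Fractional genes numbered 17 when over 1% of the summed count had to lie in fractional parts. Of 29 results of named genes with a call, 17 kept it in every alternative. Over all 337 fits, 40 lost the call, 33 of them without a library, and 0 reversed. Partners whole in every shared library, an alternative chosen after seeing the data, numbered 9. The cause of these changes was not tested. Depth limits the genes near the count minimum, whose groups hold few counts.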

Other observations

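Glyma.16G173700 was the 1 gene apart between the lines in opposite directions. It had 51.2, 46.7 and 49.3 CPM in OX_Al, against 45.2, 38.6 and 45.1 CPM in WT_Al, and 77.2, 62.4 and 59.4 CPM in OX_CK, against 84.9, 90.9 and 84.3 CPM in WT_CK. It fell with Al in both lines, and the difference between the lines did not pass the edgeR test (log2 0.58 ± 0.18 SE, adjusted p = 0.166).

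In the sparse last section, 2 low genes had nearly all their counts in 1 group. Glyma.16G183700 had 29.87 counts over OX_Al, 2 over OX_CK and none in WT. Glyma.16G185900 had 30.44 counts over WT_Al and none in any other group. Glyma.16G185900 reached the minimum sum of 30 through WT_Al alone, and Glyma.16G183700 only with the 2 counts of OX_CK added. Neither passed the filter of the test.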
